A study of Rattus norvegicus with 24 samples.

Results

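Sele, Icam1, Plat and S1pr3 are 4 genes of leukocyte adhesion, clot lysis and vessel signaling, and their read counts were examined in microglia, the resident immune cells of the brain, from neonatal rats. They were picked by name and Ensembl gene identifier (ENSRNOG00000002723, ENSRNOG00000020679, ENSRNOG00000019018 and ENSRNOG00000014524, in that order) from 32754 annotated genes, and the count tables of all 24 samples hold a row for each of the 4. The identifiers come from the study's list of genes that responded differently in females, so the female comparison of oxygen groups under LPS helped to choose them. For that reason the values of the female oxygen groups under LPS are given below as a description, with no test. Of the 4 genes, Sele passed the filter on low counts through its LPS samples alone, since it was nearly absent elsewhere.

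Sprague Dawley pups of both sexes were kept in room air (normoxia, Nx, 21% O2) or in intermittent hypoxia (IH) for 8 days. IH consisted of 2 min cycles between 10.5% and 21% O2 for 8 h per day. At postnatal day 9, 16 h after the last IH cycle, the pups received an injection of vehicle or of lipopolysaccharide (LPS), which comes from the outer membrane of bacteria and triggers inflammation, and the brains were taken 3 h later. The dose of LPS is given as 0.1 mg/kg in the study's text and as 0.1 mg/mL in the sample labels, and the vehicle is named as HBSS in the former and as saline in the latter. Cells were released from the brain without cerebellum and olfactory bulbs, myelin was removed, and cells with CD11b/c on their surface were pulled out with magnetic beads. CD11b/c is also carried by blood-derived myeloid cells, so the beads do not separate these from microglia. The 8 groups (male or female, Nx or IH, vehicle or LPS) had 3 samples each, 24 in all, described as biological replicates.

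E-selectin, encoded by Sele, is a surface protein of activated endothelium that catches rolling leukocytes, and ICAM-1, encoded by Icam1, is the ligand to which leukocyte integrins then bind firmly. Both genes are classic targets of NF-kB, the transcription factor activated by LPS through its receptor TLR4; Icam1 is also made by activated microglia and macrophages, whereas Sele is known chiefly from endothelial cells. Plat encodes tissue plasminogen activator, the protease that turns plasminogen into clot-dissolving plasmin, and in the brain it is made by endothelium, neurons and microglia. S1pr3 encodes a receptor for sphingosine 1-phosphate, a lipid that controls vessel tone and barrier function.

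Because Icam1 and Sele moved with LPS, the stretch in front of the Icam1 gene is shown here, with a match to an NF-kB-like motif in capitals. It was taken from RefSeq (assembly GRCr8, chr8:27829595-27829684, plus strand), ends before the annotated start of the gene and runs 5′ to 3′.
Icam1: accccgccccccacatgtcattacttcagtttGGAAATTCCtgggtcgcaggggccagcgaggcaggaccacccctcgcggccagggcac
The capitals mark GGAAATTCC, which begins at position -218 from the start that RefSeq gives in its promoter table. Windows were read for Sele, Icam1 and S1pr3, 3 of the 4 genes, and searched on both strands. GGAAATTCC occurred in 0.332% of all 33469 RefSeq windows of this length (250 bases before to 50 after a start), and the looser GGNNNTTCC, of which it is an instance, in 18.3%. The windows of Sele and S1pr3 held neither of them, nor TATAAA (14.2% of windows), which that of Icam1 held at -53. TGACTCA (4.63% of windows) and a 10-base NF-kB consensus (1.53%) were in none of the 3 windows. The whole Sele window and most of the Icam1 window (its TATAAA included) and of the S1pr3 window lie inside the genes as RefSeq draws them, so these windows need not be the promoters used in these cells.

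Levels are given as CPM, reads of a gene scaled to the reads on all genes of the library, with libraries scaled to each other by the trimmed mean of M-values (TMM). CPM is not corrected for gene length, so levels are compared between samples and not between genes. Totals on genes ranged from 6624453 to 8548714 reads per sample. Since these are bulk samples, a lower share of cells of one type and less RNA per cell cannot be told apart. The libraries male Nx LPS replicate 2 and male IH LPS replicate 3 stood apart from the other LPS samples. Their mean level of 10 other NF-kB targets (log2 CPM, centred for each gene on its mean over the 24 samples and averaged over the genes) was -0.14 and -0.45, against 0.69 to 2.99 in the other 10 LPS samples and -1.92 to -1.33 in the 12 vehicle samples. Cxcl10, a chemokine of this set, stood at 123 and 23.1 CPM in them and at 440 to 3192 CPM in the other LPS samples. Tests that rest on LPS males, and correlations among LPS samples, are therefore also given without each of them.

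Sele was close to silent without LPS. Across the 12 vehicle samples it collected 2 reads in all, 1 in a female Nx and 1 in a female IH sample, and none in the 6 males. After LPS it was counted in 12 of 12 samples. Male Nx LPS samples held 20.9, 2.49 and 7.62 CPM, from 149, 18 and 53 reads, and male IH LPS samples 5.55, 36.1 and 1.28 CPM, from 43, 260 and 10 reads. Female Nx LPS samples held 4.83, 22.4 and 7.06 CPM (32, 175 and 53 reads), and female IH LPS samples 0.595, 4.74 and 4.67 CPM (5, 37 and 36 reads). No LPS sample overlapped any vehicle sample, but among LPS samples the spread was wide, from 5 to 260 reads, and the means of 14.3 ± 19.0 in male IH LPS, 11.4 ± 9.57 in female Nx LPS, 10.3 ± 9.52 in male Nx LPS and 3.34 ± 2.37 in female IH LPS (SD, n = 3) had overlapping ranges at each step of that order.

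Icam1 was present at baseline and higher in every LPS sample. Vehicle samples lay between 96.1 and 146 CPM with a median of 119. In male Nx LPS the 3 samples stood at 1075, 229 and 1559 CPM, and in male IH LPS at 925, 701 and 228 CPM. The lowest sample of each of these groups was one of the 2 libraries named above. Female Nx LPS samples were the most even, at 1414, 1120 and 1408 CPM, whereas female IH LPS samples stood at 626, 553 and 1289 CPM. Ordered by mean, the groups ran from female Nx LPS (1314 ± 168) through male Nx LPS (955 ± 673), female IH LPS (823 ± 406) and male IH LPS (618 ± 355) to the 4 vehicle groups (110 ± 15.5 to 130 ± 10.3 CPM, SD, n = 3). In that order only the step from male IH LPS down to male IH had ranges that did not overlap.

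Plat differed less between vehicle and LPS samples than Sele and Icam1 did. Male Nx samples stood at 29.0, 31.98 and 12.9 CPM and male IH samples at 30.0, 19.9 and 12.2 CPM. With LPS, male Nx samples reached 114, 34.6 and 29.9 CPM and male IH samples 40.0, 75.9 and 8.42 CPM, so each group spread widely around its mean (59.6 ± 47.4 and 41.5 ± 33.8, SD, n = 3). In females the Nx samples stood at 13.7, 16.3 and 12.7 CPM with vehicle and at 25.5, 37.0 and 25.3 CPM with LPS, ranges that did not overlap. Female IH samples stood at 8.35, 15.2 and 7.79 CPM with vehicle and at 6.67, 8.46 and 15.9 CPM with LPS, which overlapped. Each neighbouring pair of groups in the order of means, from 59.6 CPM in male Nx LPS to 10.4 CPM in female IH LPS, overlapped.

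S1pr3 was a low-count gene in all groups, with 8 to 50 reads per sample. Male vehicle samples held 3.32, 5.85 and 5.90 CPM in Nx and 4.08, 1.81 and 3.68 CPM in IH, and male LPS samples 3.23, 3.74 and 3.45 CPM in Nx and 2.32, 2.64 and 3.32 CPM in IH. Female vehicle samples held 4.29, 4.46 and 2.33 CPM in Nx and 5.84, 2.42 and 1.26 CPM in IH. As for Plat, and unlike Sele and Icam1, vehicle and LPS samples overlapped in both sexes. The lowest group was female IH LPS, at 0.952, 1.67 and 1.17 CPM from 8, 13 and 9 reads, whereas female Nx LPS stood at 4.23, 3.84 and 4.80 CPM. The means ran from 5.02 ± 1.47 CPM in male Nx to 2.76 ± 0.508 in male IH LPS and 1.26 ± 0.367 in female IH LPS (SD, n = 3), and the step between the last 2 was the only one in the order without overlapping ranges. S1pr3 was chosen for a low level in female IH LPS, so the place of that group is a description only.

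**Figure D1:**
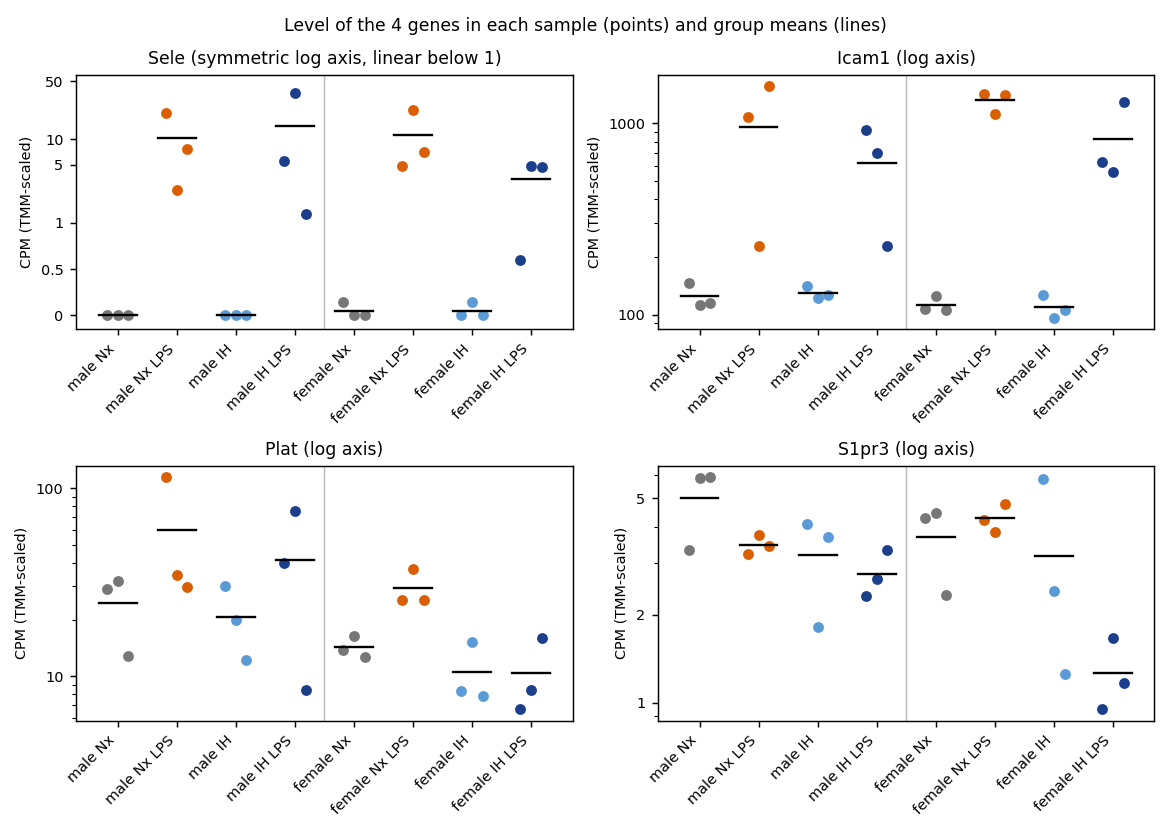
TMM-scaled CPM of Sele, Icam1, Plat and S1pr3 in each of the 24 samples (points) by group, with group means as lines; the axes are logarithmic, and that of Sele is linear below 1. Sele stays at 0 to 0.143 CPM in vehicle samples and spreads from 0.595 to 36.1 CPM after LPS, and Icam1 rises above 228 CPM in the LPS samples. S1pr3 is lowest in female IH LPS, a group that helped to choose it.

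LPS raised Sele and Icam1 in males of either oxygen group. In Nx males Icam1 rose by 2.94 ± 0.51 on the log2 scale (SE, adjusted p = 0.00213, edgeR) and Sele was at least 78.2-fold higher (adjusted p = 0.0153), from 220 reads against 0 reads over the 3 vehicle samples, whose floor was set at 3 reads over the group (0.129 CPM). Male Nx LPS replicate 1 held 149 of these reads, and without that sample the bound was at least 37.4-fold. Of the 12860 genes tested 4.07% were called in either direction and 3.16% were called higher. Sele entered the test only through its LPS samples, the group where it is high, so it is not counted against this background; without the filter on low counts its adjusted p was 0.00512. Of the other 3 genes 1 was called, Icam1. Leaving out male Nx LPS replicate 2 gave adjusted p = 4.16e-05 for Icam1 and 0.00601 for Sele. The call of Sele was lost without male Nx LPS replicate 1 (adjusted p = 0.0698), without any one of the 3 male Nx samples (up to 0.0673), and in a fit to the 12 male samples (0.101).

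In IH males Icam1 rose by 2.25 ± 0.49 on the log2 scale (adjusted p = 0.0297) and Sele was at least 102-fold higher (313 reads against 0, adjusted p = 0.0275). Male IH LPS replicate 2 held 260 of these reads, and without that sample the bound was at least 25.2-fold, while without male IH LPS replicate 3 it was at least 155-fold. Where 0.855% of all genes were called and 0.832% were called higher, Icam1 was again the 1 gene called of the 3 other than Sele, which entered the test through its LPS samples here too (adjusted p = 0.00578 without the filter). Without male IH LPS replicate 3 the adjusted p was 0.00335 for Icam1 and 0.00491 for Sele. Neither call held without male IH LPS replicate 2 (0.0889 and 0.0962), without any one of the 3 male IH samples (Icam1 up to 0.174, Sele up to 0.151) or in a fit to the 12 male samples (0.184 and 0.204), and Icam1 also lost its call without male IH LPS replicate 1 (0.235).

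In females the LPS effect was tested averaged over the oxygen groups, a quantity that does not use the difference between them. Icam1 rose by 3.23 ± 0.36 on the log2 scale (adjusted p = 5.48e-06) and was the only one called of the 3 genes other than Sele, where 14.1% of all genes were called and 8.25% were called higher. Sele, again in the test only through its LPS samples, rose too (adjusted p = 0.00158, or 0.000318 without the filter). These calls held when each female sample was left out in turn, with adjusted p up to 6.3e-05 for Icam1 and 0.00658 for Sele. By reads, Sele was 246-fold higher with LPS in Nx females (exact 95% interval 43.7 to 9750, 260 reads against 1) and 68.9-fold higher in IH females (12.01 to 2755, 78 reads against 1), intervals that cover counting error only. The gap between these ratios is the female difference that helped to choose Sele. Both ratios are a description and not a test. The ratio in Nx females was 123 without female Nx LPS replicate 2, which held 175 of the reads, and that in IH females ran from 52.7 to 99.0 when 1 LPS sample was left out.

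Plat and S1pr3 did not pass the test for LPS. The difference for Plat was 1.28 ± 0.59 in Nx males (adjusted p = 0.276), 1.00 ± 0.59 in IH males (0.698) and 0.51 ± 0.43 over both female groups (0.504), on the log2 scale with SE. In Nx males the value was 0.39 without male Nx LPS replicate 1, 1.55 without replicate 2 and 1.60 without replicate 3 of that group. In IH males it was 1.02, 0.23 and 1.48 without male IH LPS replicates 1, 2 and 3. The difference in males thus rested on male Nx LPS replicate 1 and male IH LPS replicate 2, the samples with the most Plat. For S1pr3 the differences were -0.53 ± 0.42 (adjusted p = 0.624), -0.20 ± 0.43 (0.983) and -0.55 ± 0.31 (0.283) in the same order, and -0.59 in Nx males without male Nx LPS replicate 2 and -0.36 in IH males without male IH LPS replicate 3.

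The 10 NF-kB targets that the study lists with identifiers beside these genes were read for comparison. They were also picked on female LPS samples, so their female values are not independent evidence of direction. Csf3, Cxcl1, Cxcl9 and Ptgs2 entered the test through their LPS samples, as Sele did, and are left out of the counts, which leaves 6. In Nx males 5 of these 6 were called higher, where 3.16% of all genes were (all but Il1a, which encodes a cytokine and stood at 2.01 ± 0.64, adjusted p = 0.0873), with a median of 2.61 against -0.01 over all genes. In IH males 2 of 6 were called higher, where 0.832% of all genes were, namely Birc3, an inhibitor of cell death (5.84 ± 0.94, adjusted p = 0.00318), and Cxcl10 (6.28 ± 1.11, 0.00617), with a median of 1.55 against -0.00. In females 6 of 6 were called higher, where 8.25% of all genes were, with a median of 2.22 against -0.04. The male counts depended on single samples and on the fit. In Nx males 6 of 6 were called without male Nx LPS replicate 2 and 3 or 4 without any one of the other 5 samples, 6 by the likelihood ratio test, and 3 in a fit to the 12 male samples. In IH males 4 of 6 were called without male IH LPS replicate 3 and 1 or 2 without any one of the others, 3 by DESeq2, and 1 in a fit to the 12 male samples. The difference between the counts of Nx and IH males is not a test of a difference between them.

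Whether the LPS effect differed by sex or, in males, by oxygen was tested on the differences themselves. The LPS effect in females minus that in males was 0.63 ± 0.47 for Icam1, -0.62 ± 0.59 for Plat and -0.18 ± 0.43 for S1pr3 on the log2 scale (all adjusted p = 1.00), and none of these 3 genes was called, as were 0% of all genes (169 at an unadjusted p below 0.05, and 0 by the likelihood ratio test and by DESeq2). Without male Nx LPS replicate 2 the values were 0.40, -0.76 and -0.16, and without male IH LPS replicate 3 they were 0.44, -0.87 and -0.11. The LPS effect in IH males minus that in Nx males was -0.69 ± 0.67 for Icam1, -0.28 ± 0.82 for Plat and 0.33 ± 0.60 for S1pr3 (all adjusted p = 1.00). Here too 0% of genes were called (180 at an unadjusted p below 0.05, 0 by both other tools). For Icam1 this difference was -1.15 without male Nx LPS replicate 2, -0.29 without male IH LPS replicate 3 and -0.14 without male Nx LPS replicate 3. For Plat it was -0.55 and 0.21 without the first and the second of these, and for S1pr3 0.38 and 0.17. Sele has no such value in males, because its vehicle samples held no reads. In simulated data with a change of 1.5 on the log2 scale the test for Nx males recovered 55% of changed genes and that for the male interaction 31.5%, so a change of this size could be missed.

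**Figure D2:**
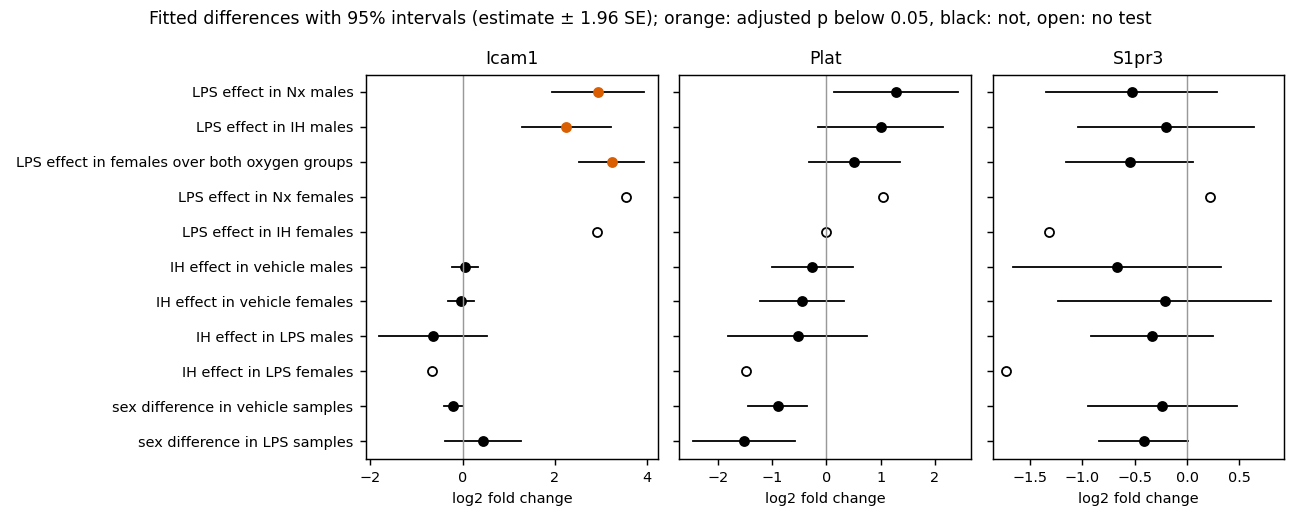
Fitted log2 differences of Icam1, Plat and S1pr3 for 11 comparisons, with normal 95% intervals from the SE; orange points had an adjusted p below 0.05, black points did not, and open points have no test because the genes were chosen on those samples. The 3 orange points are Icam1 for LPS (2.94, 2.25 and 3.23), while the intervals drawn for IH in vehicle samples and in LPS males cross 0; open points have no interval drawn.

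IH alone moved none of the genes past the test. In vehicle males the difference (IH minus Nx, log2 scale) was 0.05 ± 0.15 for Icam1, -0.26 ± 0.38 for Plat and -0.67 ± 0.51 for S1pr3, with 0% of all genes called (124 at an unadjusted p below 0.05, 2 by the likelihood ratio test and 4 by DESeq2). In vehicle females it was -0.03 ± 0.15, -0.45 ± 0.40 and -0.21 ± 0.52, with 0% called (143 at an unadjusted p below 0.05, 0 by both other tools). All these adjusted p were 1.00. The narrow errors for Icam1, against the wide ones for S1pr3 with its few reads, bound how large a baseline difference could have gone undetected. Sele could not be compared between oxygen groups without LPS, at 0 or 1 reads per group.

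Under LPS, IH males did not differ from Nx males beyond the error. The difference was -0.64 ± 0.60 for Icam1, -0.53 ± 0.66 for Plat, -0.34 ± 0.30 for S1pr3 and 0.47 ± 1.05 for Sele on the log2 scale (all adjusted p = 1.00), with 0% of all genes called (164 at an unadjusted p below 0.05, 0 by both other tools). Icam1 stood at -1.10 without male Nx LPS replicate 2, at -0.24 without male IH LPS replicate 3 and at -0.099 without male Nx LPS replicate 3. Without the first and the second of these samples Plat stood at -0.81 and -0.043, S1pr3 at -0.28 and -0.49 and Sele at 0.0076 and 1.02. Male IH LPS replicate 2, with 260 reads, decided the direction for Sele, which was -1.63 without that sample. Plat changed from -0.53 to 0.37 without male Nx LPS replicate 1, the sample with 114 CPM. Among the 10 NF-kB targets, here with Csf3, Cxcl1, Cxcl9 and Ptgs2 included, 9 had values below 0, and none was called. The targets share their samples, so this is not a count of independent results. Their median was -0.61 against -0.00 over all genes, so values below 0 were also common outside the targets. The median was -1.09 without male Nx LPS replicate 2 (10 below 0), -0.27 without male IH LPS replicate 3 (6 below 0), -0.19 without male Nx LPS replicate 1 (5 below 0) and -1.20 without male IH LPS replicate 2 (9 below 0). The 6 targets that passed the filter in vehicle samples had a median of -0.85. It was -1.36 without male Nx LPS replicate 2, -0.39 without male IH LPS replicate 3 and -0.36 without male Nx LPS replicate 3.

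In females, where the genes were chosen, the same difference under LPS was -0.66 for Icam1, -1.48 for Plat, -1.73 for S1pr3 and -1.75 for Sele on the log2 scale, values that carry no test. The LPS difference in Nx females was 3.55 for Icam1, 1.04 for Plat and 0.22 for S1pr3, and in IH females 2.91, -0.01 and -1.32. For S1pr3 the ranges of IH females with vehicle (1.26 to 5.84 CPM) and with LPS (0.952 to 1.67 CPM) overlapped, while those of Nx and IH females under LPS did not.

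Of the 4 genes Plat had the largest gap between the sexes relative to its error, though it did not pass the test over all genes. Female minus male, Plat differed by -0.90 ± 0.28 in vehicle samples (adjusted p = 0.377) and by -1.53 ± 0.48 in LPS samples (adjusted p = 0.371) on the log2 scale. Male vehicle samples ran from 12.2 to 31.98 CPM with a median of 24.5, and female ones from 7.79 to 16.3 CPM with a median of 13.2, which overlapped. With LPS the males ran from 8.42 to 114 CPM and the females from 6.67 to 37.0 CPM. Icam1 differed by -0.20 ± 0.10 (adjusted p = 0.382) and 0.43 ± 0.42 (0.738), S1pr3 by -0.24 ± 0.36 (0.741) and -0.41 ± 0.22 (0.559), and Sele under LPS by -0.999 ± 0.76 (0.667). Without male Nx LPS replicate 2 the LPS values were -1.67 for Plat, 0.20 for Icam1, -0.39 for S1pr3 and -1.23 for Sele, and without male IH LPS replicate 3 they were -1.77, 0.23, -0.34 and -1.27, with adjusted p of 0.144 or more. Of all genes 0.07% were called between the sexes with vehicle and 0.0467% with LPS, and none of Plat, Icam1 and S1pr3, nor Sele under LPS, was among them.

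If reads from vessel cells carried along with the microglia set the levels of these genes, samples rich in one of them might be rich in the others. To look at this, each sample's log2 CPM was taken as a deviation from its group mean, and the 6 pairs of genes, plus each gene against the mean of the 10 NF-kB targets, were correlated over the 12 vehicle and the 12 LPS samples, 20 relations in all. Sample labels were reordered within groups in all 1296 ways for an exact permutation p (two-sided). None of the 20 had an adjusted p below 0.05, the lowest being 0.237.

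In LPS samples Sele and Plat had the highest value of the 6 pairs, with Pearson's r = 0.85 (exact permutation p = 0.0185, adjusted p = 0.237) and Spearman's rho = 0.76 (p = 0.0394). Without the 2 samples farthest from the median of Sele r was 0.71. The highest Sele sample, male IH LPS replicate 2, was also the highest Plat sample of its group, and male Nx LPS replicate 1, with 20.9 CPM of Sele, had the highest Plat of all 24 samples. Sele and Icam1 gave r = 0.55 (rho = 0.46, exact permutation p = 0.161) and Icam1 and Plat r = 0.56 (rho = 0.48, p = 0.271), which fell to 0.43 and 0.24 without the 2 farthest samples. Without male Nx LPS replicate 3 Icam1 and Plat gave 0.85 and Sele and Plat 0.89. Icam1 and Plat gave 0.61 and 0.27 without male Nx LPS replicate 2 and male IH LPS replicate 3, where Sele and Icam1 gave 0.42 and 0.35. S1pr3 had r = -0.12 to Sele, -0.47 to Icam1 and -0.44 to Plat (exact permutation p = 0.728, 0.133 and 0.251). Without the 2 farthest samples these were 0.15, -0.26 and -0.26, without male Nx LPS replicate 2 they were -0.051, -0.49 and -0.41, and without male IH LPS replicate 3 they were 0.22, -0.27 and -0.11. With group means kept all 3 were above 0 (0.40, 0.074 and 0.50). That setting brings back the female oxygen difference that helped to choose the genes, so it cannot bear on the sign. For Sele the sign also changed with the samples left out, and it is not settled.

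The NF-kB targets gave values as high. Their mean correlated with Icam1 at r = 0.93 (rho = 0.84, exact permutation p = 0.0355), with Sele at 0.77 (rho = 0.73, p = 0.0293), with Plat at 0.76 (rho = 0.66, p = 0.0556) and with S1pr3 at -0.53 (rho = -0.50, p = 0.0718). Adjusted p were 0.237, 0.237, 0.278 and 0.287. Without the 2 samples lowest in the targets, the libraries that stood apart, r was 0.77, 0.63, 0.68 and -0.36. Without male Nx LPS replicate 2 alone they were 0.84, 0.77, 0.89 and -0.56, and without male IH LPS replicate 3 alone 0.90, 0.65, 0.56 and -0.32. For Sele and Plat, r was 0.85 without male Nx LPS replicate 2 and 0.78 without male IH LPS replicate 3. Sele and Plat thus had high r both with each other and with the NF-kB targets, and the 12 samples do not separate the 2 relations. In vehicle samples the 10 relations had r between -0.46 and 0.31 and adjusted p of 0.542 or more, with 2 reads of Sele to go on. One of them rested on a single sample: without male IH replicate 1 the NF-kB targets and Plat went from -0.19 to -0.76, with an adjusted p of 0.0463. A part of carried-over vessel cells in these values was not tested, since identifiers of the planned endothelial and mural markers were not at hand.

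**Figure D3:**
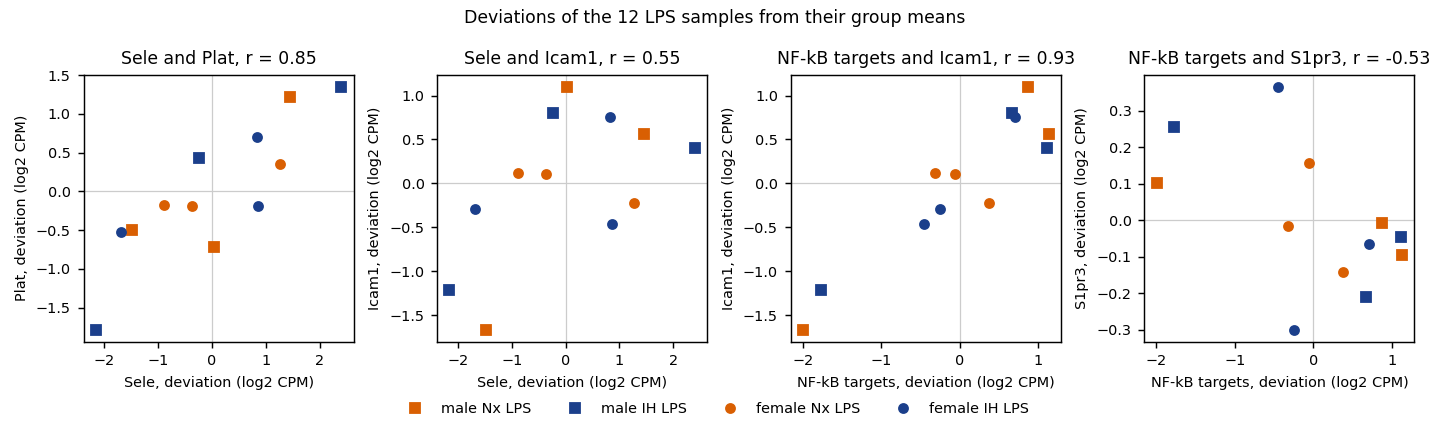
Deviations of the 12 LPS samples from their group means in log2 CPM, for 4 pairs of measures, with squares for males, circles for females, orange for Nx and blue for IH. Sele and Plat lie along a rising line (r = 0.85, adjusted p = 0.237), Icam1 follows the mean of 10 NF-kB targets (r = 0.93) with the 2 low male libraries at lower left, and S1pr3 has r = -0.53 with that mean.

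Likeness was read among the 20 other genes that the study lists with an identifier, a selection made on these samples, so other genes of the files may be more alike. Over all 24 samples, those whose log2 CPM was most like that of Icam1 were Cxcl10 (r = 0.98, rank 1 among the other 12859 genes), Birc3 (0.98, rank 6) and Irf1, a transcription factor of the interferon response (0.96, rank 35), followed by Cd83 (0.96) and the neutrophil chemokine Cxcl1 (0.93). For Sele they were Cxcl1 (0.95, rank 3), Ptgs2, the inducible enzyme of prostaglandin synthesis (0.94, rank 7), Csf3, a growth factor of neutrophils (0.93, rank 8), Birc3 (0.93) and Cxcl10 (0.92). The samples fall into vehicle and LPS clusters, so these r describe the step between them and have no p. Plat was less like any named gene, with 0.62 to Ptgs2 and Cxcl1, 0.60 to the chemokine Cxcl9, 0.59 to Sele and 0.55 to the cytokine Il6, at ranks 223 to 446. S1pr3 reached 0.28 with Mcpt1l1 (rank 1535) and with Plat (rank 1592), 0.15 with Gpr15l, 0.12 with Il1a and 0.00 with RGD1561143.

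With group means removed, the named genes most like Icam1 over the 24 samples were Irf1 (r = 0.96, rank 1), Cxcl10 (0.91) and Birc3 (0.90), and those most like Sele were Cxcl1 (0.79, rank 16), Ptgs2 (0.77) and Plat (0.76, rank 32). Plat was closest to Ptgs2 (0.79, rank 64), Cxcl1 (0.77) and Sele (0.76, rank 95). S1pr3 reached 0.41 with Il1a (rank 305), 0.27 with Mcpt1l1 and 0.17 with Gpr15l. Without male IH LPS replicate 3 the values of Plat were lower, at 0.66 with Ptgs2, 0.65 with Cxcl1 and 0.63 with Sele. Among the 12 LPS samples alone, Sele reached 0.91 with Cxcl1 and 0.88 with Ptgs2, above its 0.85 with Plat, and Plat reached 0.88 with Ptgs2. Without male Nx LPS replicate 2 these were 0.93, 0.86, 0.85 and 0.92, and without male IH LPS replicate 3 they were 0.87, 0.81, 0.78 and 0.76. In the 12 samples Icam1 had values of 0.64 to 0.98 with the 10 targets, of which the lowest, Csf3, fell to 0.12 without male Nx LPS replicate 2. S1pr3 had values from -0.73 to -0.24, which became -0.75 to -0.14 without male Nx LPS replicate 2 and -0.62 to -0.075 without male IH LPS replicate 3.

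**Figure D4:**
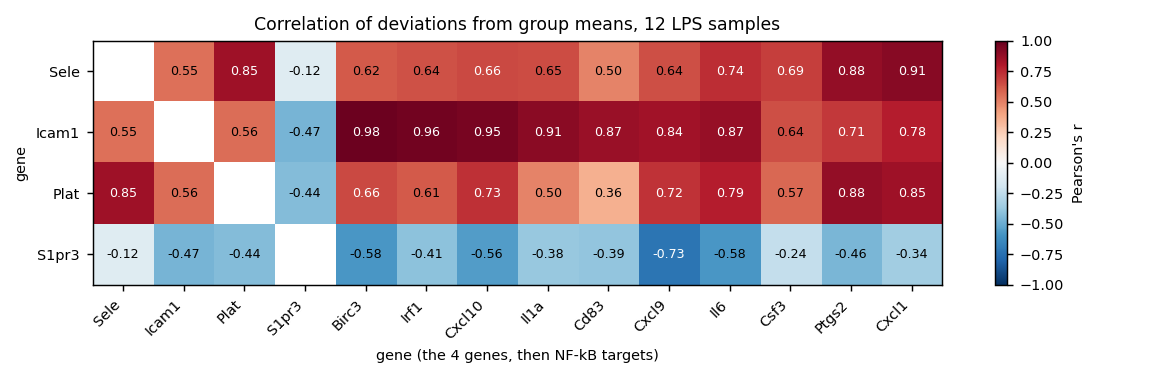
Pearson's r between the deviations of the 4 genes (rows) and of the 4 genes and 10 NF-kB targets (columns) over the 12 LPS samples, colored from blue at -1 to red at 1. Sele and Plat share high values with Ptgs2 and Cxcl1 (0.85 to 0.91), Icam1 is closest to Birc3 (0.98), and the values of S1pr3 with the other genes are all below 0.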

How the data were processed

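Stranded libraries of mRNA were read on an Illumina HiSeq. The authors aligned the reads with TopHat (2.1 in the submitters' processing notes, build rn6) and assigned them to Ensembl genes with HTSeq in its reverse-strand setting, and they deposited the raw counts, without normalization. The 5 summary rows of each file were left out of totals; among them, reads on no gene were 14.7% to 21.2% of the sum over all rows, reads not uniquely placed 11.7% to 23.4% and ambiguous reads 0.265% to 0.435%. Because counting used strand and left out ambiguous reads, reads marked as antisense were not assigned to these genes. How well the libraries kept strand was not measured.

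A gene was kept if 3 or more of the 24 samples exceeded a CPM of 1 (12860 genes), libraries were scaled by TMM, and edgeR 4.0.16 (R 4.3.3) quasi-likelihood tests with Benjamini-Hochberg adjustment over all kept genes were called below 0.05. LPS effects and their differences were fitted to all 24 samples in 8 groups, and IH and sex effects to the 12 vehicle or 12 LPS samples. Sex differences were averaged over oxygen. log2 CPM used a prior count of 2. Permutations used NumPy 2.4.6. The scripts were tested on simulated counts.

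Named genes were the 4 genes, the 10 NF-kB targets and, for each of the 4, the 5 most alike by r over samples and the 3 most alike by r of deviations, picked from the 20 other genes that the study lists with an identifier (its own selection) and not from all genes; ranks are over all genes kept. No table here pairs the files' other identifiers with symbols, so planned lists for leukocyte adhesion, plasminogen activation, sphingosine 1-phosphate, endothelial, mural, microglial and other cell markers were not analysed here, and the microglial label was not checked. Genes and lists were chosen with earlier results of these data known. Replicate pairs within groups differed beyond sampling noise (chi-square per degree of freedom 7.81 or more). The labels give no sequencing batch. P-values rest on the spread between these samples, which edgeR moderates with information from all genes. The study exposed dams together with their pups. The litter of each sample was not known here, so samples of a group may share a litter. Alternatives were a likelihood ratio test, DESeq2 1.42.0, RLE size factors, no filter, other sets of samples in the fit, the replicate number as a block and leaving out 1 sample at a time; for correlations, a prior count of 0.5, RLE size factors, group means kept and the replicate block.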

Additional observations from a re-analysis of the deposited data

How the results depend on the processing

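In the 3 LPS comparisons Icam1 and Sele, the latter in the test only through its LPS samples, were called under the likelihood ratio test, DESeq2, RLE size factors, no filter and the replicate block. In a fit to the 12 samples of the sex Icam1 kept its call in Nx males and in females and lost it in IH males. Sele, which is not counted against the background, kept its call only in females. With 1 replicate left out, Icam1 kept its call each time in Nx males and in females and lost it in 5 of 6 cases in IH males. Sele lost its call in 4 of 6 cases in Nx males and in IH males, and never in females. The number of all genes called moved from 523 to 812 (DESeq2) or 212 (12 samples) in Nx males, with 161 to 1028 when a replicate was left out, and from 110 to 238 (likelihood ratio), 250 (DESeq2) or 44 (12 samples) in IH males, with 26 to 353. For sex it moved from 9 to 33 (likelihood ratio) and 32 (DESeq2) with vehicle, and from 6 to 85, 73 and, with the replicate block, 27 under LPS. IH called 2 (likelihood ratio) or 4 (DESeq2) genes in vehicle males, 0 to 2 with a replicate left out, and 0 to 1 in LPS males. Samples of one replicate number had a mean correlation of deviations of 0.0503 over 84 pairs (-0.57 to 0.49), against -0.025 for samples of unlike numbers. With 3 samples per group this cannot exclude a pairing. The replicate block changed no call of the 4 genes but turned Sele for IH in LPS males from 0.47 to -0.44. Leaving out one replicate turned the sign of other values short of the threshold: Sele for IH in LPS males (-1.63 to 1.52) and for sex under LPS (-1.46 to 0.054), S1pr3 for LPS in IH males (-0.49 to 0.022), for the sex difference in the LPS effect (-0.38 to 0.21) and for IH in vehicle females (-1.004 to 0.17), Plat for the male interaction (-1.05 to 0.61), IH in vehicle males (-0.64 to 0.012) and IH in LPS males (-1.34 to 0.37), and Icam1 for IH in vehicle males (-0.024 to 0.17) and females (-0.14 to 0.065). Of the 20 correlations, 0 passed in each setting but one: without male IH replicate 1, 1 passed (NF-kB targets and Plat in vehicle samples, r = -0.76, adjusted p = 0.0463; range 0 to 1). With the replicate block r was 0.88 for Sele and Icam1, 0.77 for Icam1 and Plat and 0.91 for Sele and Plat (adjusted p = 0.134, 0.417 and 0.0977). Sele and S1pr3 ranged from -0.52 to 0.22 with a replicate left out. With group means kept the r of S1pr3 was 0.40 to Sele, 0.074 to Icam1, 0.50 to Plat and 0.23 to the targets. Keeping the means brings back the female oxygen difference that helped to choose the genes, so these values cannot bear on the sign. Causes were not tested. Depth limits S1pr3 (8 to 50 reads) and Sele without LPS (0 or 1 reads per sample).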
